A study of Callithrix jacchus with 20 samples.

Results

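The 8 transcription factor genes described here mark the primitive streak and the mesoderm that leaves it, and they were followed, among 25102 genes in the count tables, across every condition of a marmoset study. They are the T-box genes TBXT, EOMES and TBX6, the homeobox genes MIXL1, GSC, LHX1 and EVX1, and the basic helix-loop-helix gene MESP1. Members were found in the tables by symbol, and each of the 8 had 1 row. The study sequenced poly(A) RNA of marmoset (Callithrix jacchus) induced pluripotent stem cells (cjiPSCs) on their way to primordial germ cell–like cells (cjPGCLCs). The cells are read here as the line DPZ_cjiPSC#2, made from foetal fibroblasts by episomal reprogramming. The paper gives this line as its default but names none for the RNA-seq, and its cultures in TESR and in cjPSCM included other lines as well. There were 10 conditions with 2 biological replicates each, 20 libraries in all.

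The cjiPSCs were kept either in TESR medium (TeSR-E8) or in cjPSCM, a medium that holds CHIR (an inhibitor of GSK3 that switches on WNT signalling), IWR-1 (an inhibitor of WNT signalling), the SRC inhibitor A419259, vitamin C, LIF, TGFβ and FGF2. From each medium, precursors of mesendoderm (pre-ME) were made over a day with CHIR, a ROCK inhibitor and either Activin A (ActA) or no ActA. CHIR was thus present in all pre-ME, and "without ActA" means CHIR alone of the inducing agents. Pre-ME of the cjPSCM cultures were made into embryoid bodies with BMP4, LIF, SCF and EGF, and on day 4 these were sorted into double-positive cells (cjPGCLCs) and double-negative cells (somatic cells). The labels name EpCAM together with INTα6 or CXCR4 as sort markers, where the paper sorted on INTα6 and CXCR4, and the titles of the sorted samples spell the medium cjEPSCM, which is read here as cjPSCM. The 20 libraries hold no sorted cells of TESR origin. If all conditions share 1 line, as is read here, the spread between replicates holds no difference between animals or clones.

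The primitive streak is where cells of the epiblast become mesoderm and endoderm. WNT and NODAL signals start it and BMP helps to set its posterior end. Activin binds the receptors of NODAL and acts through the same SMAD proteins. TBXT (Brachyury) is required for posterior mesoderm and the notochord, EOMES for the exit of mesoderm and endoderm cells from the epiblast, and MIXL1 is an early target of NODAL in mesendoderm. GSC and LHX1 are genes of the anterior streak and the organiser, EVX1 belongs to the posterior streak, and TBX6 and MESP1 act in the mesoderm that has just formed. In primate cultures, pre-ME can be competent to form germ cells, and a step through pre-ME is used before germ cell induction. The paper reports such competence for pre-ME from cjPSCM but not for pre-ME from TESR.

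Between 4784964 and 22067099 reads per library were counted on genes (median 11599813). A count of 3, taken as the smallest level that can be reported, stood for 1.40 to 6.92 normalised counts, depending on the library, and such floors cover counting error only. Normalised counts are the authors' counts divided by the size factor of the library, not by gene length, so levels of different genes are not compared. The log2 difference between replicates had an SD over genes of 0.311 to 0.619 in 9 conditions and of 0.959 in cjiPSCs in cjPSCM. Some fold changes against that condition are therefore also given without 1 of its libraries. All 6 pluripotency markers tested, among them POU5F1 and NANOG, were above the floor in every library. Differences were tested with edgeR over 15797 genes, and a gene is called changed where the adjusted p was under 0.05 and the log2 fold change beyond 2 in either direction. Of the 8 members, 7 were tested. GSC did not pass the filter on low counts and is given as counts.

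**Figure D1:**
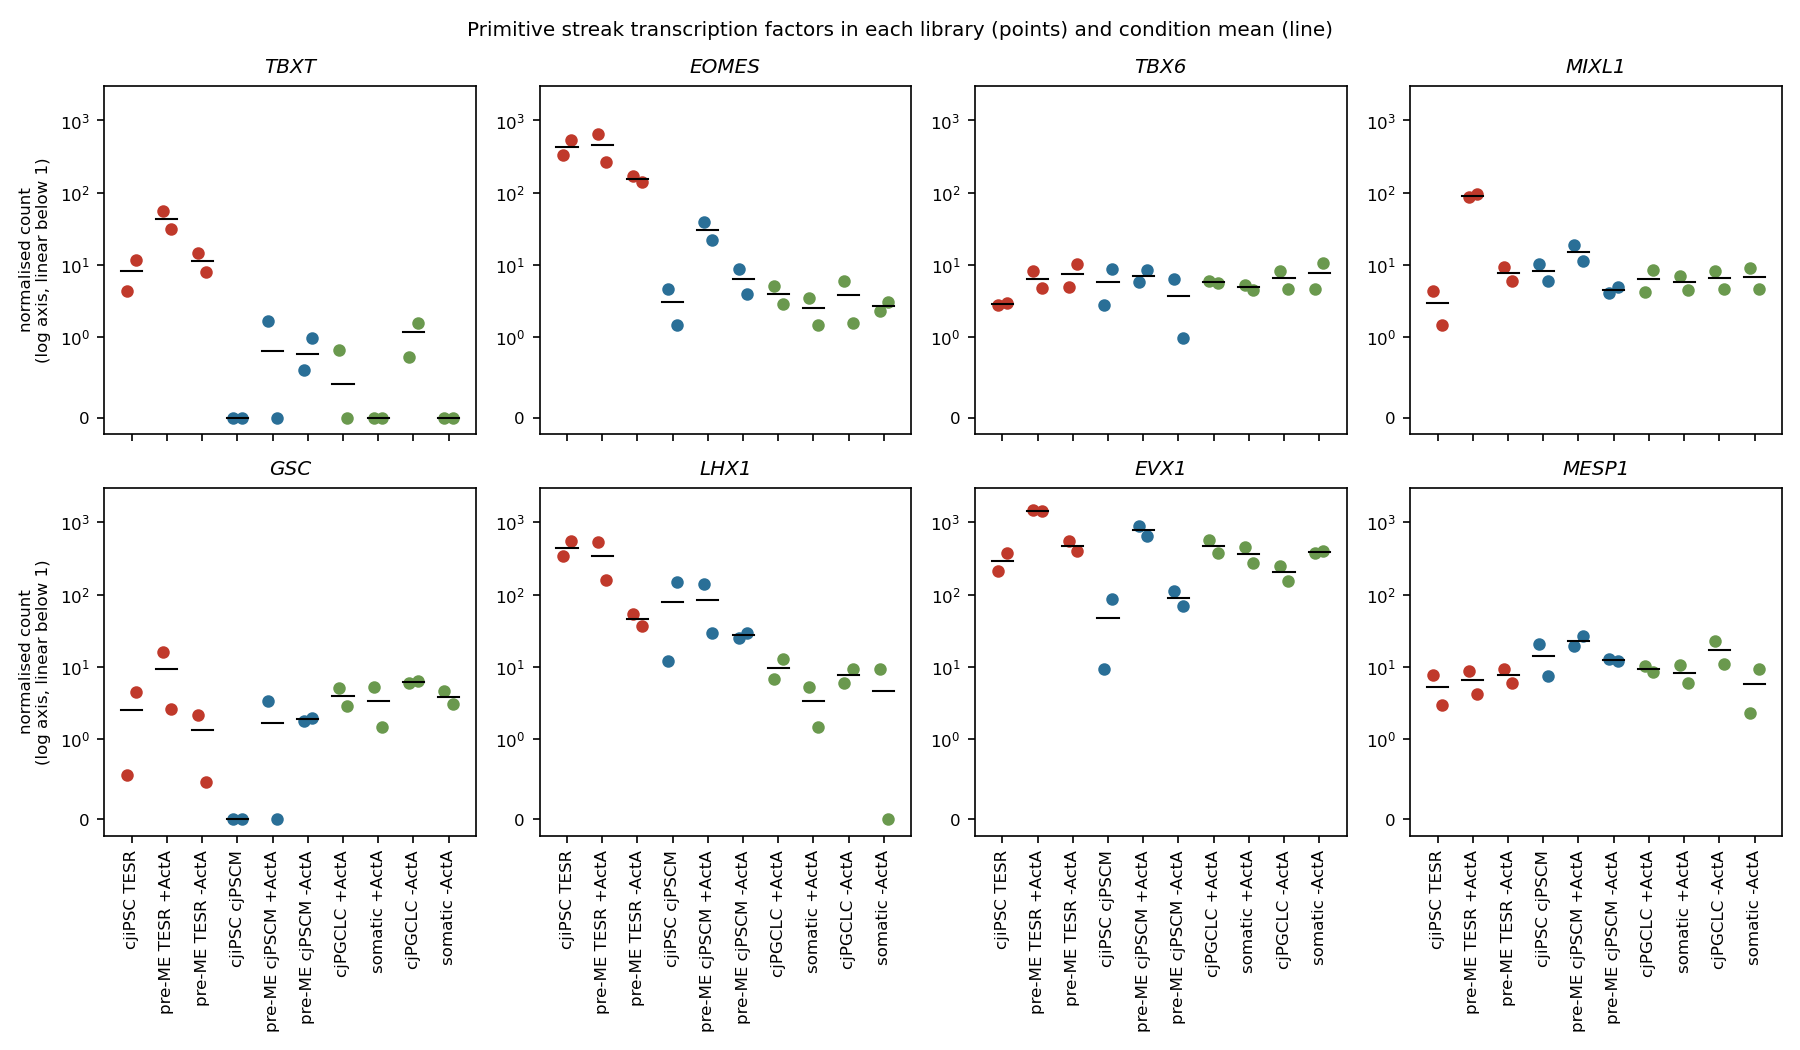
Normalised count of each member (vertical axis, log scale above 1 and linear below) in each of the 20 libraries (points) with the mean of each condition (line), for cells in TESR (red), cells in cjPSCM (blue) and sorted day 4 cells of cjPSCM origin (green). EOMES lies between 142 and 641 in the 6 TESR libraries and at 39.2 or less in the other 14, MIXL1 stands at 87.6 and 95.5 in TESR pre-ME with ActA and at 19.2 or less elsewhere, and EVX1 lies at 154 or more in all sorted cells.

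TBXT was seen almost only in the TESR cultures. In TESR pre-ME with ActA it had 55.3 and 31.8 normalised counts in replicates 1 and 2 (raw counts of 101 and 60), in TESR pre-ME without ActA 14.8 and 7.95 (27 and 17) and in TESR cjiPSCs 4.41 and 11.9 (8 and 8). The highest of these conditions did not overlap with the next, while pre-ME without ActA and cjiPSCs in TESR did. In the 14 libraries of cjPSCM origin no more than 2 reads were counted, and 8 of these had none. Both libraries were at 0 in cjiPSCs in cjPSCM and in the somatic cells of either protocol. At that depth the levels of the cjPSCM conditions cannot be ordered. In the RefSeq table of another marmoset assembly 2 uncharacterised genes overlap TBXT, and reads that such genes share may be lost or moved in the counting.

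EOMES was high in the TESR cultures. It had 641 and 267 normalised counts in TESR pre-ME with ActA, 329 and 536 in TESR cjiPSCs and 169 and 142 in TESR pre-ME without ActA. The first 2 of these conditions overlapped, and both lay above the third. In cjPSCM pre-ME with ActA it had 39.2 and 22.5 (raw counts of 47 and 16), below every TESR library and above the other 12. Those 12 held 1.48 to 8.84 normalised counts from 1 to 15 reads, and 7 of them were at or under 3 reads. Each of these low conditions overlapped with the next in the order of means.

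TBX6, which directs paraxial mesoderm, was low in every library, with 1 to 22 reads and 136 in all. Its means lay between 2.87 normalised counts in TESR cjiPSCs and 7.72 in somatic cells from pre-ME without ActA. It was called in no comparison, and no adjusted p was under 0.05.

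MIXL1 had 1 high condition. TESR pre-ME with ActA held 87.6 and 95.5 normalised counts (raw counts of 160 and 180). cjPSCM pre-ME with ActA came next with 19.2 and 11.2 (23 and 8), without overlap with either neighbour in the order. The other 8 conditions had means of 2.95 to 8.15 from 1 to 17 reads per library. No order can be given to these, since each overlapped with the next.

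GSC had 80 reads in all 20 libraries. It had 29 and 5 reads in TESR pre-ME with ActA, which stand for 15.9 and 2.65 normalised counts and differ 5.98-fold. No other library had more than 8 reads, 13 libraries had 3 or fewer, and both libraries of cjiPSCs in cjPSCM had none. The high value therefore rests on 1 library.

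LHX1 was high in TESR cjiPSCs before any induction, with 339 and 554 normalised counts (616 and 372 reads). TESR pre-ME with ActA held 536 and 157 and overlapped with these cjiPSCs. In TESR pre-ME without ActA it was at 54.3 and 37.4.

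In cjPSCM the replicates of LHX1 stood apart. cjiPSCs held 12.2 and 148 normalised counts (13 and 100 reads, 12.1-fold apart), and pre-ME with ActA held 139 and 29.5, 4.72-fold apart in the other direction. Pre-ME without ActA in cjPSCM held 24.8 and 29.7. The sorted cells had 0 to 9 reads, so that their means of 3.40 to 9.78 are close to the floor. In the RefSeq table LHX1 overlaps LOC103793155, a gene with 29 reads in all libraries together.

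EVX1 was above the floor in all 20 libraries. TESR pre-ME with ActA held 1466 and 1426 normalised counts, cjPSCM pre-ME with ActA 904 and 642, and TESR pre-ME without ActA 547 and 403. These 3 conditions did not overlap.

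The sorted cells held EVX1 at 154 to 564 normalised counts. cjPGCLCs had 564 and 381 normalised counts with ActA and 252 and 154 without, and somatic cells 457 and 276 with ActA and 381 and 401 without. TESR cjiPSCs held 210 and 380, within the range of the sorted cells. The lowest were cjPSCM pre-ME without ActA at 111 and 70.3 and cjiPSCs in cjPSCM at 9.42 and 86.0, 9.13-fold apart.

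MESP1, an early factor of cardiac and other anterior mesoderm, was low but present, with 1 to 30 reads per library. Its highest condition was cjPSCM pre-ME with ActA at 19.2 and 26.7 normalised counts, and its lowest TESR cjiPSCs at 7.71 and 2.98. Except for cjPSCM pre-ME without ActA, which at 12.97 and 11.9 lay above the next condition, every condition overlapped with the next one in the order. MESP2, its neighbour in the RefSeq table, was counted as a gene of its own.

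Before induction, 4 of the 7 members tested were lower in cjPSCM than in TESR and none was higher, where 9.18% of all genes tested were called in either direction. EOMES fell by 6.94 on the log2 scale (SE 0.585, adjusted p = 1.57e-07), from 433 ± 146 normalised counts (SD, n = 2) to 3.10 ± 2.28. TBXT went from 8.16 ± 5.31 to 0 in both libraries, which is at least 1.83-fold lower against the floor of 3 counts per library (adjusted p = 0.0114). LHX1 fell by 2.59 (SE 0.771, adjusted p = 0.0151) and EVX1 fell by 2.78 (SE 0.553, adjusted p = 0.000865). In these bulk libraries, fewer cells that express a gene and less of its RNA per cell cannot be told apart. MIXL1, TBX6 and MESP1 had log2 fold changes of 1.23, 0.87 and 1.24 that did not pass.

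The replicates of cjPSCM cjiPSCs decided part of this. Without its replicate 1, LHX1 had a log2 fold change of -1.61 (adjusted p = 0.0758), EVX1 one of -1.76 and TBXT an adjusted p of 0.0702, and 1 member, EOMES, remained called. Without its replicate 2, LHX1 and EVX1 stood at -5.15 and -4.90. LHX1 also missed the threshold without TESR replicate 2 (adjusted p = 0.0582) and by DESeq2 (adjusted p = 0.0750). In a fit on the 4 libraries of the comparison alone, EOMES, EVX1 and LHX1 were called and TBXT was not. The median log2 fold change of the 7 members was -2.59, or -0.88 with TBXT at its bound, against -0.00044 for all genes. Other cell markers moved with the medium as well. The summed level of 5 endothelial markers was 13388 to 30900 in cjPSCM against 2561 to 2827 in TESR, with 5 of 5 called higher. That of 8 definitive endoderm markers was 3151 to 4443 against 286 to 426, with 4 of 7 tested called higher. The paper counts PECAM1 of the endothelial list among genes of naive and formative pluripotency. SOX17 and CXCR4 of the endoderm list are germ cell markers as well. The part of these marker lists in the members' differences was not tested.

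TESR pre-ME with ActA had 3 of 7 members above the cjiPSCs, where 6.96% of all genes were called. The TESR pre-ME libraries, with or without ActA, are numbered apart from the cjiPSCs in the series. Induction and a possible batch thus cannot be told apart here. Reads outside genes were 10.6 and 13.3% in the TESR cjiPSCs and 19.5 and 19.3% in TESR pre-ME with ActA. MIXL1 rose by 4.67 on the log2 scale (SE 0.461, adjusted p = 1.97e-06), TBXT by 2.64 (SE 0.544, adjusted p = 0.00222) and EVX1 by 2.34 (SE 0.447, adjusted p = 0.000817). EOMES and LHX1 had log2 fold changes of 0.10 (SE 0.342) and -0.34 (SE 0.678), from cjiPSC levels that were already high. Without TESR cjiPSC replicate 1, TBXT and EVX1 came to 1.89 and 1.96 and were no longer past the fold threshold.

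TESR pre-ME without ActA showed another picture. None of the 7 was higher and LHX1 was lower by -3.26 (SE 0.762, adjusted p = 0.00328), where 7.86% of all genes were called. EOMES passed the adjusted p alone with a log2 fold change of -1.45 (SE 0.353, adjusted p = 0.00427). It came to -1.10 without TESR cjiPSC replicate 2, and it did not keep the adjusted p in every fit with 1 library left out. MIXL1, TBXT and EVX1, the genes that rose with ActA, had log2 fold changes of 1.10, 0.70 and 0.73 that did not pass.

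In cjPSCM, pre-ME with ActA had 2 of 7 members higher than the cjiPSCs, where 3.06% of all genes were called. EVX1 rose by 4.21 (SE 0.548, adjusted p = 6.97e-05), from 47.7 ± 54.1 to 773 ± 185 normalised counts, and EOMES rose by 3.19 (SE 0.725, adjusted p = 0.00591), from 3.10 ± 2.28 to 30.8 ± 11.8. MIXL1 had a log2 fold change of 0.90 (SE 0.489). TBXT had 2 reads and none, against none in the cjiPSCs, so no fold is given. Without cjiPSC replicate 1, EVX1 came to 3.21, and without cjiPSC replicate 2 to 6.35, with LHX1 called as well (2.87, adjusted p = 0.0280). EOMES lost its call without cjiPSC replicate 1 (adjusted p = 0.0537) or without pre-ME replicate 1 (adjusted p = 0.0960). In a fit on the 4 libraries of this comparison alone, which leaves little to estimate the spread from, neither gene passed (adjusted p = 0.11 for EOMES and 0.0997 for EVX1).

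Pre-ME without ActA in cjPSCM had 0 of 7 members called against the cjiPSCs by edgeR, where 5.27% of all genes were called. None had an unadjusted p under 0.05 and DESeq2 called 0. The values nearest to the threshold were EVX1 with a log2 fold change of 1.16 (SE 0.578, adjusted p = 0.122) and LHX1 with -1.43 (SE 0.868, adjusted p = 0.204). Without cjiPSC replicate 1, LHX1 was called (-2.41, adjusted p = 0.0263), and without cjiPSC replicate 2, EVX1 was (3.30, adjusted p = 0.000796). The pre-ME comparisons of a medium share their cjiPSC libraries, so their counts are not independent of each other.

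**Figure D2:**
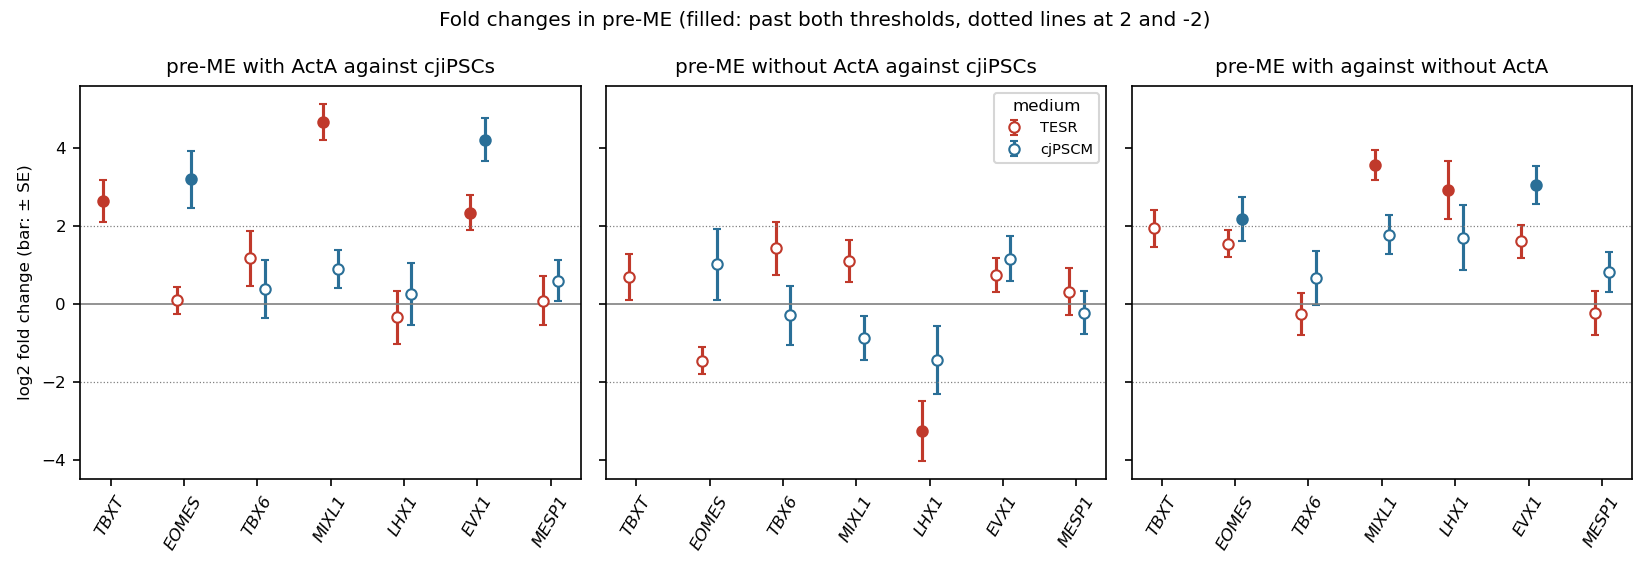
Log2 fold change (vertical axis, bars ± SE) of the 7 members tested in pre-ME with ActA against cjiPSCs, pre-ME without ActA against cjiPSCs, and pre-ME with against without ActA, in TESR (red) and cjPSCM (blue), filled where past both thresholds and left out where both groups had 3 reads or fewer per library. With ActA, MIXL1 in TESR (4.67) and EVX1 in cjPSCM (4.21) rose furthest, and without ActA the filled point is LHX1 in TESR (-3.26).

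The direct comparison of pre-ME with and without ActA shows what ActA added to CHIR. In TESR, 2 of 7 members were called, both higher, where 2% of all genes were called. MIXL1 went from 7.70 ± 2.29 to 91.5 ± 5.64 normalised counts (log2 fold change 3.56, SE 0.383, adjusted p = 1.21e-05). LHX1 went from 45.9 ± 11.9 to 346 ± 268 (2.92, SE 0.751, adjusted p = 0.0197).

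Another 3 members passed the adjusted p in TESR with smaller differences. These were TBXT with 1.94 (adjusted p = 0.0175), EVX1 with 1.61 (adjusted p = 0.0237) and EOMES with 1.55 (adjusted p = 0.00874). Without ActA replicate 1, TBXT came down to 1.49 and EOMES to 0.78. EVX1 came down to 1.40 without replicate 2 of pre-ME without ActA. None of TBXT, EVX1 and EOMES kept the adjusted p in every fit with 1 library left out. TBX6 and MESP1 had log2 fold changes of -0.25 and -0.23. MIXL1 kept its call without any 1 library and by DESeq2. LHX1 lost it by DESeq2 (adjusted p = 0.0778), without ActA replicate 1 (log2 fold change 1.78, adjusted p = 0.350) and without either replicate of pre-ME without ActA (adjusted p = 0.105 and 0.218). Without ActA replicate 2, 5 members were called, since TBXT (2.28) and EOMES (2.05) passed the fold threshold as well and GSC (3.53, adjusted p = 0.0192) then passed the filter on low counts. The median over the 7 members was 1.61, against 0.01 for all genes.

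In cjPSCM, 2 of 7 members were called, both higher, where 2.11% of all genes were called. EVX1 went from 90.9 ± 29.0 to 773 ± 185 normalised counts (log2 fold change 3.05, SE 0.477, adjusted p = 0.000445), and it kept its call without any 1 library. EOMES went from 6.40 ± 3.45 to 30.8 ± 11.8 (2.18, SE 0.573, adjusted p = 0.0145). It lost its call without ActA replicate 1 (1.67, adjusted p = 0.222) or without replicate 2 of pre-ME without ActA (1.81, adjusted p = 0.11). MIXL1 passed the adjusted p alone (1.78, adjusted p = 0.0211) and LHX1 had a log2 fold change of 1.70 (SE 0.837, adjusted p = 0.156). MIXL1 came to 2.07, past the fold threshold, without ActA replicate 2, and to 1.29 without ActA replicate 1. It did not keep the adjusted p in every fit with 1 library left out. The reads of TBXT, 2 and 0 with ActA and 1 and 1 without, give no fold.

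Within pre-ME with ActA, the 2 replicates differed by member. In TESR, replicate 1 was above replicate 2 for GSC (5.98-fold), LHX1 (3.41-fold), EOMES (2.40-fold) and TBXT (1.74-fold), whereas MIXL1 and EVX1 differed 1.09-fold and 1.03-fold. TBX6 (8.21 and 4.78 normalised counts) and MESP1 (8.76 and 4.25) were also higher in replicate 1. In cjPSCM, replicate 1 was above replicate 2 for LHX1 (4.72-fold), EOMES (1.75-fold), MIXL1 (1.71-fold) and EVX1 (1.41-fold). TBX6 (5.84 and 8.43) and MESP1 (19.2 and 26.7) were lower in replicate 1 there.

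Whether ActA acted differently on the members in the 2 media was tested as an interaction, the effect in cjPSCM minus that in TESR, which was judged on the adjusted p alone. By edgeR 0 of 7 members passed, where 0.399% of all genes did, and DESeq2 called 0. An unadjusted p under 0.05 was found for 2 members that pointed in opposite directions, MIXL1 with -1.78 (SE 0.667, adjusted p = 0.197) and EVX1 with 1.44 (SE 0.621, adjusted p = 0.252). So with no library left out MIXL1 passed both thresholds in TESR alone and EVX1 in cjPSCM alone. A difference between the media was not shown for either. In a fit on the 8 pre-ME libraries alone EVX1 passed, where 2513 of all genes did, against 63 in the fit over all libraries.

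Between pre-ME of the 2 media, TBXT and EOMES were called lower in cjPSCM with and without ActA, as between the cjiPSCs. The other members called varied, and the pre-ME are other libraries than the cjiPSCs. The TESR pre-ME libraries are numbered apart from all others in the series, so the medium and a possible batch cannot be told apart here. They held 18858625 to 22067099 reads on genes, against 8193936 to 17491325 in cjPSCM pre-ME. With ActA, 3 of 7 members were called, all lower in cjPSCM, where 4.12% of all genes were called. EOMES fell by 3.84 (SE 0.420, adjusted p = 6.92e-06) and MIXL1 fell by 2.54 (SE 0.380, adjusted p = 0.000154). TBXT had 2 and 0 reads in cjPSCM against 101 and 60 in TESR, a ratio of 41.4 per size factor (95% counting interval 11.3 to 345, adjusted p = 0.000267). MESP1 was the member with a difference in the other direction, with a log2 fold change of 1.76 that passed the adjusted p alone (0.0228). It came down to 1.33 without replicate 2 of the TESR pre-ME, and did not keep the adjusted p in every fit with 1 library left out. LHX1, with -1.98, had an adjusted p of 0.0544. Without replicate 2 of the TESR pre-ME, 5 members were called lower, with LHX1 (-2.62, adjusted p = 0.0362) and GSC (-2.91, adjusted p = 0.0406), which passed the filter there, besides these 3. Without replicate 1 of the TESR pre-ME, MESP1 was called higher in cjPSCM (2.36, adjusted p = 0.0410), and without replicate 1 of the cjPSCM pre-ME, LHX1 was called lower (-3.57, adjusted p = 0.0392).

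Without ActA, 3 of 7 were called, again all lower in cjPSCM, where 3.91% of all genes were called. EOMES fell by 4.47 (SE 0.496, adjusted p = 8.46e-06) and EVX1 fell by 2.35 (SE 0.468, adjusted p = 0.00211). TBXT had 1 and 1 reads in cjPSCM against 27 and 17 in TESR, a ratio of 15.0 (interval 3.92 to 128, adjusted p = 0.00834), and its adjusted p was 0.0534 to 0.0945 without replicate 1 or 2 in cjPSCM or replicate 1 in TESR. EVX1 with ActA had a log2 fold change between the media of -0.91 (SE 0.421, adjusted p = 0.116). Endothelial markers were higher in cjPSCM pre-ME as well, with 4 of 5 called in either protocol and summed levels of 4932 to 5484 against 936 to 1118 in TESR, and their part in these differences was not tested.

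On day 4, cjPGCLCs and somatic cells were compared with the cjPSCM pre-ME they came from. With ActA, 2 of 7 members were called in cjPGCLCs, both lower, where 8.36% of all genes were called, and 2 of 7 in somatic cells, both lower, where 8.3% were. EOMES fell by 2.89 (SE 0.683, adjusted p = 0.00235) in cjPGCLCs, to 3.96 ± 1.58 normalised counts. In somatic cells it had 2 and 1 reads against 47 and 16, a ratio of 13.6 per size factor (95% counting interval 4.44 to 67.6, adjusted p = 0.00221).

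LHX1 fell by 3.25 (SE 1.04, adjusted p = 0.0165) in cjPGCLCs and by 4.73 (SE 1.38, adjusted p = 0.00954) in somatic cells. Both calls were lost without pre-ME replicate 1, the library with 167 reads against 21 in replicate 2 (adjusted p = 0.351 and 0.165). They were also lost without replicate 1 of the cjPGCLCs (adjusted p = 0.134) and replicate 2 of the somatic cells (adjusted p = 0.0866). MIXL1 passed the adjusted p alone, with -1.39 (adjusted p = 0.0356) and -1.46 (adjusted p = 0.0436). It came to -0.88 without replicate 1 of the cjPGCLCs, and to -0.98 in somatic cells without pre-ME replicate 1. Neither value kept the adjusted p in every fit with 1 library left out. EVX1 had log2 fold changes of -0.70 (adjusted p = 0.188) and -1.10 (adjusted p = 0.0514).

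Without ActA, in cjPGCLCs 0 of 7 members were called by edgeR, where 7.88% of all genes were. EVX1 had an unadjusted p under 0.05 (log2 fold change 1.15, adjusted p = 0.0659), and DESeq2 called 0. In somatic cells EVX1 was higher, the 1 member of 7 called, where 7.94% of all genes were. It went from 90.9 ± 29.0 to 391 ± 14.3 normalised counts (log2 fold change 2.05, SE 0.484, adjusted p = 0.00275). The difference is at the fold threshold, and came to 1.76 without pre-ME replicate 2 and to 1.98 without replicate 2 of the somatic cells. LHX1 had 4 and 0 reads in the somatic cells against 42 and 30 in the pre-ME (log2 fold change -2.83, SE 1.62, adjusted p = 0.173), and it was called lower with no filter on low counts and in a fit on the 4 libraries of this comparison alone. Of the 7 amnion-like markers tested, 4 to 7 were called higher in each of these 4 comparisons, with summed levels of 8265 to 15370 in sorted cells against 1474 to 2609 in the pre-ME. Of the 7 definitive endoderm markers tested, 6 were called higher in cjPGCLCs in either protocol, with summed levels of 5783 to 11183 against 968 to 1135 in the pre-ME, and 3 and 2 in somatic cells (3131 to 5507). This list holds SOX17 and CXCR4, which are germ cell markers as well, and the paper sorted the cjPGCLCs on CXCR4. The part of these marker lists in the levels of the members was not tested.

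No member was called between the sorted cells. cjPGCLCs and somatic cells differed in 0 of 7 members with ActA (1.58% of all genes called by edgeR) and in 0 of 7 without (2.84%), and DESeq2 called 0 in either. With ActA no member had an unadjusted p under 0.05, and without ActA MESP1 did (log2 fold change 1.5, SE 0.691, adjusted p = 0.221). EVX1 was the member measured best, with differences of 0.39 (SE 0.446) and -0.90 (SE 0.464) that missed the threshold. EOMES had 6 and 2 reads in cjPGCLCs against 2 and 1 in somatic cells with ActA, a ratio of 1.75 (95% counting interval 0.419 to 10.2), so a difference was not detectable at this depth. In the same libraries CXCR4, a sort marker and so no finding, was higher in cjPGCLCs by 4.29 with ActA and 4.52 without, and SOX17, a specifier of the primate germ line, by 2.42 and 4.63.

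No member was called between the protocols of the sorted cells either. cjPGCLCs from pre-ME with and without ActA differed in 0 of 7 members by edgeR (0.38% of all genes called), and somatic cells in 0 of 7 (0.00633%). DESeq2 called 0 in both. EVX1 had an unadjusted p under 0.05 in cjPGCLCs, with a log2 fold change of 1.19 (SE 0.452, adjusted p = 0.218), and no member had one in somatic cells. The interaction of sorting and ActA passed for 0 of 7 (0.0633% of all genes), with no unadjusted p under 0.05 and 0 by DESeq2.

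Other genes of the streak pathways give the setting of these values. Of 13 genes that respond to WNT or CHIR, 9 were higher in pre-ME than in cjiPSCs in each of the 4 comparisons, with or without ActA and in both media. SP5, a direct target of WNT signalling, rose by 6.22 in cjPSCM without ActA, from 22.2 to 1604 normalised counts, in the same libraries in which 0 of 7 members were called. In cjPSCM without ActA 1 of the 13 was lower, NKD2, an inhibitor of WNT signalling with 13 and 5 reads in the cjiPSCs and 3 and 2 in the pre-ME, which is named after its values were seen. Between pre-ME with and without ActA, 0 of the 13 were called in TESR and 4 in cjPSCM, all higher. Of all genes, 2% and 2.11% were called. Another 5 of the 13 in TESR and 1 in cjPSCM passed the adjusted p alone, and the medians over the 13 were 0.58 and 0.51. The 4 called in cjPSCM were CDX2 (2.54), NKD2 (2.42), NOTUM (2.22) and LEF1 (2.15).

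Of 7 tested genes of the NODAL and Activin pathway, 3 were higher with ActA in TESR and 4 in cjPSCM, and none was lower. NODAL had 1030 and 430 reads with ActA and 2 and 5 without in TESR, and 268 and 38 against 0 and 1 in cjPSCM. SMAD7, an inhibitor of the pathway that its own signal induces, rose by 2.38 in TESR and by 2.54 in cjPSCM.

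Of 8 ligands tested, 3 were higher with ActA in TESR, WNT3 (3.64), FGF8 (2.58) and BMP4 (2.07), and 1 in cjPSCM, FGF8 (4.13). Against the cjiPSCs, FGF8, which the streak makes and which drives the movement of its cells, rose by 6.20 in TESR and by 4.56 in cjPSCM with ActA. Of 14 tested genes of nascent mesoderm, 1 was higher with ActA in each medium, HAND1 in TESR (2.72) and KDR in cjPSCM (2.50), and 1 was lower in each, MEOX1. Against the pre-ME with ActA, 5 of these 14 were higher in cjPGCLCs and 4 in somatic cells, among them HAND1, PDGFRA and GATA4 in both, while 0 of the 7 members were higher.

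**Figure D3:**
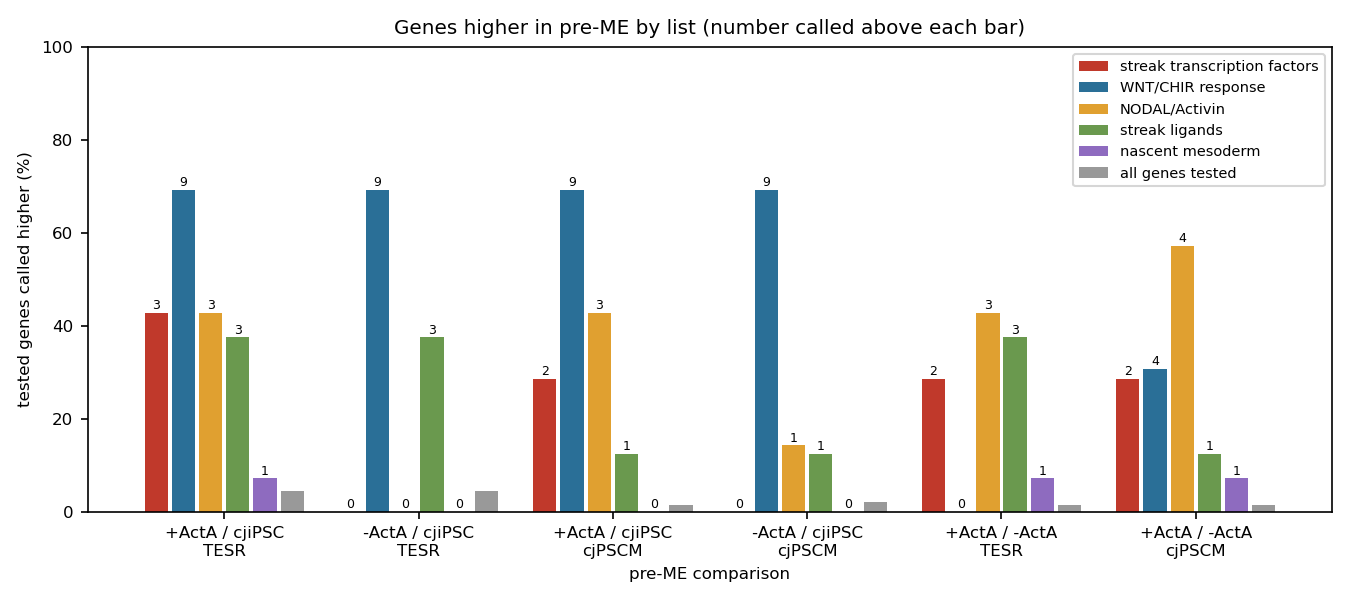
Share of tested genes called higher (vertical axis, percent) in the 6 pre-ME comparisons for the 7 members tested, 4 other lists of streak genes and all 15797 genes, with the number called above each bar. The WNT/CHIR list has 9 of 13 in each comparison with cjiPSCs, while the members have 3, 0, 2 and 0 of 7.

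The patterns of the members over the 10 condition means were compared as log2(normalised count + 1). TBXT, EOMES and LHX1 were the most alike, with Pearson's r of 0.91 for TBXT and EOMES, 0.87 for EOMES and LHX1 and 0.75 for TBXT and LHX1 (Spearman's rho 0.87, 0.90 and 0.68). MIXL1 had r of 0.58 with TBXT and 0.40 with EOMES, but Spearman's rho of 0.13 and 0.09. For TBXT, EOMES and MIXL1, rho also ranks low conditions that overlap and cannot be ordered, so it says little about r there. EVX1 had r of 0.51 to 0.55 with TBXT, EOMES and MIXL1. MESP1 had negative or near-zero values with TBXT (-0.40) and EOMES (-0.37). The points share libraries and depth, and 10 conditions of 1 line are few, so these values are a description.

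**Figure D4:**
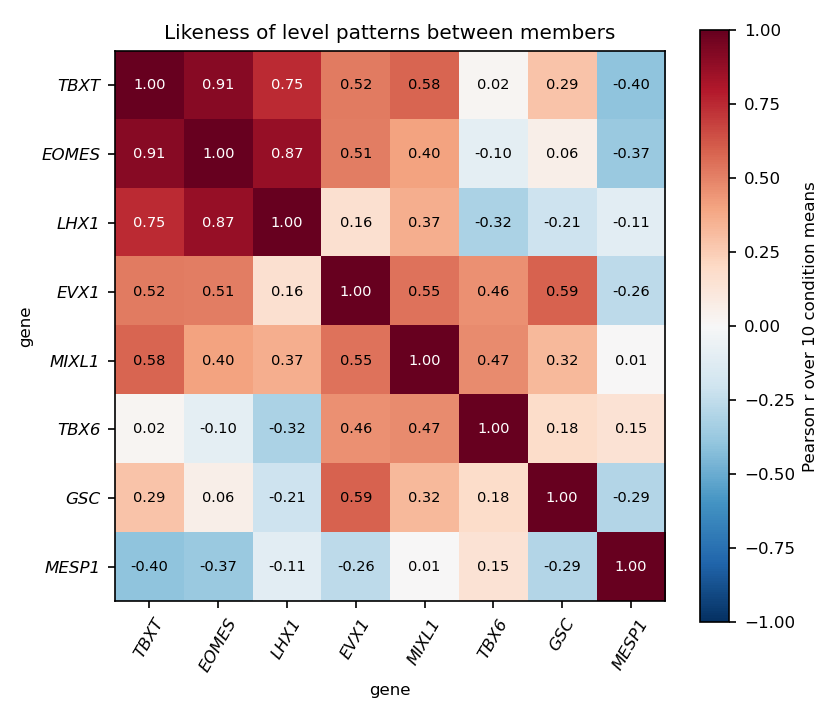
Pearson's r between the members (both axes) over 10 condition means of log2(normalised count + 1), in blue for negative and red for positive values. TBXT, EOMES and LHX1 form the block with r of 0.75 to 0.91.

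Among all tested genes with a symbol, the 3 with the pattern most like that of each member were named by Pearson's r over the 10 conditions. By Spearman's rho, 0 or 1 of the 3 stayed among the 3 nearest of a member, so the names depend on the measure. For TBXT they were HOXC8 (0.98), STC2 (0.95) and ABHD12B (0.95), and for EOMES EDC3, BMP7 and PAPPA (0.97 each). For LHX1 they were CTNNBL1, JPT1 (0.97 each) and TCF15 (0.96), and for MIXL1 LARP1B (0.95), NIN (0.94) and NODAL (0.91). For EVX1 they were FGFRL1 (0.94), GRHL2 and GRIP1 (0.93 each). BMP7 ran from 1.95 to 785 normalised counts over the conditions, whereas EDC3 followed EOMES over a range of 724 to 1122 only, so a high r does not mean a change of like size. TBX6 and MESP1 had no more than 22 and 30 reads in any library, and the genes nearest to them were ELMOD3 (0.91) and PIH1D1 (0.95). TBXT had 3 reads or fewer in 14 of 20 libraries, and the highest condition means of HOXC8 and STC2 were 22.9 and 12.1 normalised counts.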

How the data were processed

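The authors made poly(A) libraries, mapped the paired-end reads with STAR 2.7.0a to calJac4 and deposited raw counts per gene from HTSeq-count 0.11. They also deposited a normalised signal, the count divided by the DESeq2 size factor of the library. The product of signal and size factor differed from the raw count by 3.78e-10 at most. The annotation release and the strand setting of the counting are not given in the sources used here, so genes that overlap may share or lose reads. Paired with the RefSeq table of assembly calJac240_pri, 21267 of 25102 symbols matched, and its gene order was used without coordinates. No sequences are shown.

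Conditions and replicate numbers came from the labels. The deposited raw counts went into edgeR 4.0.16, run in R 4.3.3 (TMM, filterByExpr by condition, quasi-likelihood test, 1 coefficient per condition over 20 libraries, 10 residual degrees of freedom, common dispersion 0.0203), with Benjamini-Hochberg adjustment within each of 19 comparisons over 15797 genes. P-values measure the spread between 2 biological replicates, read here as 1 line. Where a group had no reads, folds are bounds against 3 counts in its shallower library, and where it had 1 to 3 reads in all, ratios of pooled counts have exact conditional binomial intervals (95%, counting error only). A group with 3 reads or fewer in each library was compared with no other such group. The test was checked on simulated counts.

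The members and lists were chosen with earlier results of these data known. Named genes were the 8 members, the 3 symbols most like each by Pearson's r, and in each list up to 4 called genes with the largest change. Lists were WNT/CHIR response (13 genes), NODAL/Activin (11, of which 9 are in the tables), streak ligands (9), nascent mesoderm (16) and markers of 6 cell types. Summed levels of neural markers were 12.2 to 323 and of germ cell markers 1172 to 6592 over all libraries. Alternatives were DESeq2 1.42.0, its size factors in edgeR, no filter, the libraries of a comparison only, the replicate number as a block, each library left out and, for likeness, Spearman's rho and a pseudocount of 10 in place of 1. A crossed block was added after seeing the data. Figures were drawn with matplotlib 3.10.9 in Python 3.11.15.

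Same-numbered libraries of 2 conditions had correlations of their deviations between -0.193 and 0.234 over 17 comparisons, 5 of them over 0.1, so the numbers were not taken as pairs.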

Additional observations from a re-analysis of the deposited data

How the results depend on the processing

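The number of members called moved by more than 1.5 times under few settings. Pre-ME with against without ActA in TESR gave 1 by DESeq2 in place of 2. On the libraries of a comparison alone, cjPSCM pre-ME with ActA against cjiPSCs gave 0 in place of 2, somatic cells against pre-ME without ActA gave 2 (EVX1 and LHX1) in place of 1, and the interaction of ActA and medium gave 1 (EVX1) in place of 0. With no filter on low counts, that interaction gave 2 (EVX1 and LHX1) and the interaction of sorting and ActA gave 1 (EVX1). In that fit GSC was called higher in TESR pre-ME with ActA, by 2.76 against pre-ME without ActA and by 2.39 against cjiPSCs, on 29 and 5 reads.

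Leaving out each library gave 1 to 4 members between the media of the cjiPSCs, 1 to 4 in TESR pre-ME with ActA and 1 to 3 in cjPSCM pre-ME with ActA against cjiPSCs, and 0 to 1 in cjPSCM pre-ME without ActA. The ActA effect had 1 to 5 in TESR and 1 to 3 in cjPSCM, and the media differed in 3 to 5 in pre-ME with ActA. Against pre-ME with ActA, cjPGCLCs and somatic cells each had 1 to 2, and somatic cells without ActA had 0 to 1. For 33 member fold changes past the adjusted p, leaving out a library gave 106 values in the same state, called or not. Another 22 were weaker and 4 stronger. Members past the adjusted p alone had no call to lose, so a lost adjusted p counted as the same for them. Each such fold change lost the adjusted p in at least 1 of these fits.

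No fold change reversed. With DESeq2 31 of 33 kept their state, called or not, and with its size factors in edgeR 33. EVX1 in somatic cells without ActA came to 1.99 with no filter, where LHX1 was the 1 member called. The calls lost by DESeq2 were those of LHX1 between the cjiPSC media and for ActA in TESR. With the replicate number as a block all 33 kept their state and no count of members changed, the 0 members in the interactions included. Correlations under -0.1 in 3 comparisons led to a crossed pairing, under which 3 of 3 fold changes kept their call and the counts were 2, 0 and 1. Depth limits TBXT, TBX6, MESP1 and GSC most, and with 2 libraries per condition no value was tested for outliers.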
